A study of Mus musculus with 6 samples.

Results

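The genes described are 35 genes of apoptosis, necroptosis, pyroptosis and the p53 response. They were listed by symbol for their known function, with earlier results of these data known. All 35 were found among the 53746 genes of the count table, and 30 of them were among the 16961 genes that had enough counts to be tested. RNA of whole cerebellum was sequenced for 2 genotypes with 3 mice each, *N153S*LSL/LSL *Pcp2-cre* (named Pcp2-cre below) and *N153S*LSL/LSL (control), all 2 months old and perfused with cold PBS. Both groups carry a *Sting1* N153S knockin allele, held silent by a LoxP-Stop-LoxP cassette. *Pcp2-cre* removes the cassette in Purkinje cells, so the mutant is made there and not in the other cells that each library also holds. Mice 1 and 2 of each genotype are male and mouse 3 is female. The control mice have no Cre, so effects of Cre and of the mutant cannot be told apart. The comparison asks how expression of cell death genes differs in a cerebellum whose Purkinje cells carry active STING.

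Apoptosis runs through the BCL2 family, in which BH3-only proteins set off the pore formers BAX and BAK at mitochondria and survival proteins hold them back, and it ends in caspases that cut proteins such as PARP1. Death receptors reach the same caspases through FADD and caspase 8. Necroptosis uses RIPK1, RIPK3 and MLKL to rupture the membrane, and pyroptosis uses inflammasome sensors, inflammatory caspases and the pore former gasdermin D. The p53 protein raises several of the BH3-only genes and the cell cycle inhibitor *Cdkn1a*. In the brain, inflammasome genes are best known from microglia.

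The sensors *Naip5*, *Naip2* and *Aim2* had the largest log2 fold changes of the 30 tested genes, and the sequences around their start sites are shown. *Naip2* and *Naip5* are neighbouring copies of the *Naip* family, and their reads are hard to separate from those of its other copies. That depends on their exons, described further below, and not on these windows. The 300 bases are from 250 before to 50 after the start site in the RefSeq promoter table, which uses GRCm38.p6, and each matched the GRCm39 genome at a single place. In the *Naip2* sequence, at chr13:100338581-100338880 on the reverse strand, and the *Naip5* sequence, at chr13:100383795-100384094 on the reverse strand, the capitals mark the 4 runs of 10 or more bases that both share, 99 bases in all. In the *Aim2* sequence, at chr1:173247920-173248219 on the forward strand, the capitals mark GAGGAAGT, a string bound by the myeloid ETS factor PU.1.
*Naip2*: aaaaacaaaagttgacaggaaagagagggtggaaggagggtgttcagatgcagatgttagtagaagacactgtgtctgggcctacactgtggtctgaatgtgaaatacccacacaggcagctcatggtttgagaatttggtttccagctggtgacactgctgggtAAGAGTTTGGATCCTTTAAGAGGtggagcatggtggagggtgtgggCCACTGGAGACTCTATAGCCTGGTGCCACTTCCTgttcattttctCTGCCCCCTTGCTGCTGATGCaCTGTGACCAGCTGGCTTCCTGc
*Naip5*: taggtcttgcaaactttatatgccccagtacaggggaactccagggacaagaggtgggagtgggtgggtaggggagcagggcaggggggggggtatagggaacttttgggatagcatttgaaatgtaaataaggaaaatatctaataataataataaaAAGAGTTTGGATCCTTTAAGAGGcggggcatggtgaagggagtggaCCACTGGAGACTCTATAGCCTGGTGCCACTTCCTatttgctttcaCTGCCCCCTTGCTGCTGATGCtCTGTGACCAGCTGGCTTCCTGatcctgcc
*Aim2*: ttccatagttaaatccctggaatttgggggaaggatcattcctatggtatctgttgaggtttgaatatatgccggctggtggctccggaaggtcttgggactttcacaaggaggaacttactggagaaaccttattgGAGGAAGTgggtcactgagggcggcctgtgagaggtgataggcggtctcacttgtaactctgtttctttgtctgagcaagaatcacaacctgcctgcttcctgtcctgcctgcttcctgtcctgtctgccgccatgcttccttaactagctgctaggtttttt

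The shared runs are 23, 34, 21 and 21 bases long and all lie in the part of the window nearest the start site, from base -85 on in *Naip2* and from base -92 on in *Naip5*. In the Gencode M39 annotation *Naip2* spans 13:100278929-100338694 and *Naip5* spans 13:100348247-100382831, both on the reverse strand, so the *Naip5* window lies upstream of the annotated 5′ end of that gene. The *Aim2* window lies inside the annotated gene, 1:173178445-173293930, which also has a start farther upstream. RefSeq promoters were matched for 32 of the 35 genes. On either strand, GAGGAAGT stood in the promoters of *Aim2*, *Bak1* and *Pycard*, against 3.2% of all 32851 promoters. The interferon response string GAAANNGAA, where N is any base, stood in those of *Naip2*, *Ripk1*, *Ripk3* and *Xiap*, against 8.56% of all promoters. GGGNNTTTC, a string of NF-kB sites, stood in those of 7 members, *Aim2* and *Naip2* among them, against 4.36%. TATAAA stood in those of *Naip5*, *Trp53* and *Xiap*, against 13.6%, and GGCATGT, a string found in p53 sites, stood in that of *Pycard* alone, against 2.85%. These are matches of letters only. A member was counted if any of its promoters matched, while the shares are of the 32851 promoters, which belong to 27025 genes. Counts of members and these shares are thus in unlike units.

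Total counts lay between 6733178 and 10178218 per mouse, and a floor of 3 counts, used as the limit of detection, came to 0.297 to 0.447 CPM. CPM are counts scaled to the size of the library, and this floor covers counting error only. The engineered gene *Sting1* had 25.5 ± 2.09 CPM (SD, n = 3) for control mice, against 38.0 ± 5.55 CPM (SD, n = 3) for Pcp2-cre mice. Control mice 1 and 2 stood apart in choroid plexus RNA. The summed level of 10 choroid plexus markers was 849 and 1295 CPM in those mice, 33.6 CPM in control mouse 3, and 25.4 to 90.5 CPM in the Pcp2-cre mice. Results are therefore also given for a fit that includes a choroid plexus score, and for a fit with control mouse 3 as the only control, which assumes that this mouse varies like the others. The score is high only in control mice 1 and 2, so both fits lean on control mouse 3 and are not separate checks. That mouse is also the only female control. All 10 Purkinje cell markers were lower in Pcp2-cre mice, by a median of -0.75 on the log2 scale. Granule and Purkinje cell markers were present in every mouse, which fits the tissue label. In bulk tissue, fewer cells of a type and less RNA per cell cannot be told apart.

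Of the 30 tested genes, 4 were higher in Pcp2-cre cerebella and 1 was lower. The genes that rose were the inflammasome sensors *Naip5*, *Naip2* and *Aim2* and the BH3-only gene *Bcl2l11*, and the gene that fell was *Parp1*. *Naip5* and *Naip2* had enough counts to be tested only through the Pcp2-cre mice, where they are high. Their place among the tested genes is thus tied to the difference itself, which limits the comparison of this count with the shares of all genes. The list was also chosen with earlier results of these data known, which limits that comparison further. A gene passed at an adjusted p of at most 0.05 (edgeR's quasi-likelihood test, adjusted by the Benjamini-Hochberg method over all 16961 genes), and of those genes 2.99% passed as higher and 4.75% as lower. When a log2 fold change of 0.5 or more in either direction was also required, the 4 genes that rose remained and *Parp1* did not, against 1.37% of all genes as higher and 1.79% as lower. The median log2 fold change of the 30 genes was 0.13, within a range of -0.29 to 1.86, and that of all tested genes was 0.0045. The groups did not overlap in CPM for 7 of the 30 genes with Pcp2-cre mice higher and for 1 with Pcp2-cre mice lower, against 10.8% and 11.4% of all tested genes. With the choroid plexus score 3 genes were higher, *Naip5*, *Bcl2l11* and *Casp8*, and with control mouse 3 as the only control 2 were, *Naip5* and *Casp8*, while *Parp1* was lower in both fits. DESeq2 called *Naip5* and *Bcl2l11* higher and *Parp1* lower, with adjusted p = 0.127 for *Naip2* and 0.210 for *Aim2*. All 5 genes that passed also had groups apart, in the same direction, in the deposited FPKM, a level scaled to gene length and library size. In FPKM the groups were apart for 9 of the 30 genes with Pcp2-cre mice higher and for 2 with Pcp2-cre mice lower, against 11.3% and 8.47% of all tested genes. *Pycard*, *Casp12*, *Bak1* and *Trp53*, higher, and *Casp9*, lower, were apart in FPKM and not in CPM, and *Casp8* and *Gsdmd* in CPM and not in FPKM.

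**Figure D1:**
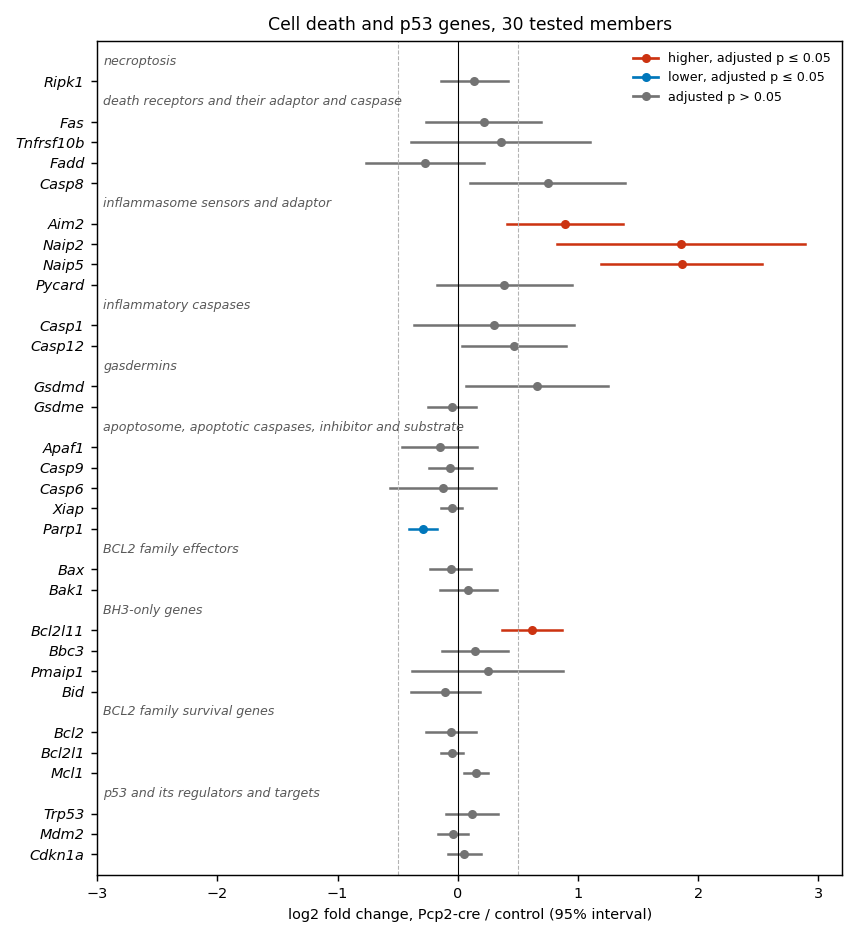
Log2 fold change of Pcp2-cre over control mice (horizontal axis) for the 30 tested genes, grouped by role, from 3 mice per genotype; points are edgeR estimates and bars their 95% intervals, and dashed lines mark 0.5 in either direction. The 4 genes that rose and the 1 that fell are coloured, and most of the grey intervals lie near 0.

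Inflammasome sensors showed the largest differences. NAIP5 and NAIP2 are cytosolic receptors of bacterial proteins, NAIP5 for flagellin and NAIP2 for the rod of the type III secretion system, and both work through NLRC4. *Naip5* was counted 6, 6 and 7 times in control mice 1, 2 and 3, against 26, 20 and 19 times in the Pcp2-cre mice of the same numbers. This was 0.778 ± 0.103 CPM (SD, n = 3) against 2.85 ± 0.559 CPM (SD, n = 3), and the lowest Pcp2-cre mouse lay well above the highest control mouse. Its log2 fold change was 1.86 (standard error, SE, 0.322, adjusted p = 4.65e-04 in edgeR's quasi-likelihood test). It was 1.95 (adjusted p = 0.00465) with the choroid plexus score and 2.00 (adjusted p = 0.00804) with control mouse 3 as the only control.

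*Naip2* was counted 7, 0 and 5 times in the control mice, against 16, 11 and 14 times in the Pcp2-cre mice. Its level was 0.456 ± 0.438 CPM (SD, n = 3) for control mice, against 1.82 ± 0.473 CPM (SD, n = 3) for Pcp2-cre mice, with no overlap although control mouse 2 had no count. The log2 fold change was 1.85 (SE 0.494, adjusted p = 0.0210 in edgeR's quasi-likelihood test). The call rested on some single mice. Without control mouse 2 the log2 fold change was 1.41 (adjusted p = 0.0619 in edgeR's test), without Pcp2-cre mouse 1 it was 1.72 (adjusted p = 0.122) and without Pcp2-cre mouse 3 it was 1.76 (adjusted p = 0.108). It was 1.78 (adjusted p = 0.0956) with the choroid plexus score and 1.82 (adjusted p = 0.109) with the single control.

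Both values are uncertain as values of a single gene. Of the stretches of 31 bases in the exons of *Naip5*, 53.4% also occur in other genes, most often in *Naip6* (36.7%), and of those of *Naip2* 24.7% do, most often in *Naip1* (15.4%). How the authors treated reads that map to several genes is not given in the sources used here. Summed counts of *Naip1*, *Naip2*, *Naip5* and *Naip6* came to 17, 12 and 19 for the control mice, against 45, 41 and 44 for the Pcp2-cre mice. The sum removes only the split of reads among these 4, and still depends on whether reads that map to several genes were kept. *Naip3*, which holds 21.1% of the stretches of *Naip5* and 14.6% of those of *Naip2*, is not in it. The sum also holds the *Naip5* and *Naip2* counts given above, so it is not a separate test of them. The sum was 1.93 ± 0.172 CPM (SD, n = 3) for control mice, against 5.72 ± 0.906 CPM (SD, n = 3) for Pcp2-cre mice, 2.97-fold higher, and the exact two-sided permutation test gave p = 0.1, the smallest that 3 against 3 mice allow. Every Pcp2-cre mouse lay above every control mouse in this sum.

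AIM2 senses DNA in the cytosol. *Aim2* had 2.49, 2.09 and 2.58 CPM in control mice 1, 2 and 3 and 3.69, 4.39 and 5.47 CPM in Pcp2-cre mice 1, 2 and 3, from 14 to 38 counts per mouse. Every Pcp2-cre mouse lay above every control mouse. The log2 fold change was 0.89 (SE 0.230, adjusted p = 0.0168 in edgeR's quasi-likelihood test). The call was lost in 9 of 16 alternatives, more often than those of the other 4 genes that passed. The adjusted p rose to 0.0587 without control mouse 1, 0.0691 without control mouse 2, 0.0642 without Pcp2-cre mouse 2 and 0.114 without Pcp2-cre mouse 3, all in edgeR's test. With the choroid plexus score the value was 0.87 (adjusted p = 0.114), and with the single control it was 0.79 (adjusted p = 0.179).

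The partners of these sensors did not pass or could not be tested. *Pycard* encodes ASC, the adaptor that joins sensors to caspase 1. It had 2.74, 2.38 and 1.68 CPM in the control mice and 3.69, 2.31 and 2.81 CPM in the Pcp2-cre mice, groups that overlap, with a log2 fold change of 0.39 (95% interval -0.18 to 0.95, adjusted p = 0.515 in edgeR's test). *Nlrp3*, a sensor of membrane and ion stress, was counted 3, 4 and 5 times in control mice, against 6, 6 and 6 times in Pcp2-cre mice. *Nlrc4* was counted 3, 4 and 12 times in control mice, against 5, 14 and 5 times in Pcp2-cre mice. Both were under the filter on low counts. The CPM of *Nlrp3* did not overlap between the groups, the exact two-sided permutation p was 0.1, the smallest possible, and *Nlrc4* overlapped.

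**Figure D2:**
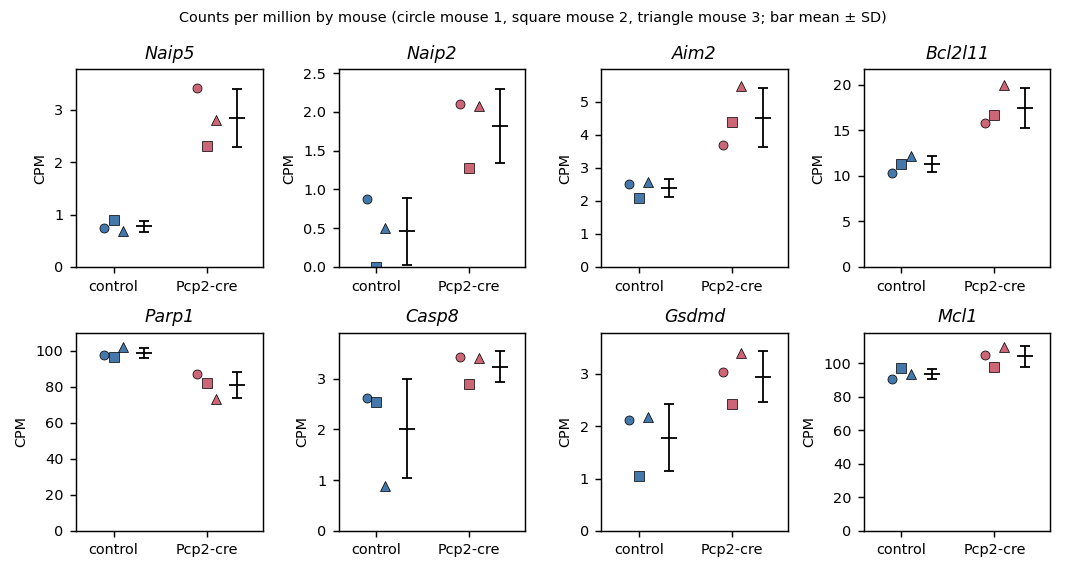
CPM (vertical axes, each from 0) of 8 genes in each of 3 control (blue) and 3 Pcp2-cre (red) mice, with the mean and SD of each group as a bar at its right. The 8 genes shown are the tested genes whose groups do not overlap in CPM, and *Casp8* in control mouse 3 lies below the other control mice.

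Microglia markers moved with the sensor genes. Of 12 microglia markers 10 were higher in Pcp2-cre mice, by a median of 1.74 on the log2 scale over the 12, and their summed level was 127 to 132 CPM in control and 363 to 411 CPM in Pcp2-cre mice. *P2ry12* and *Tmem119* did not pass, and no marker of the list was at 0 in all mice. Their part in the values of *Naip5*, *Naip2* and *Aim2* was not tested. Markers of other leukocytes were low. The summed level of 7 T cell markers was 0.125 to 0.892 CPM in control and 0.659 to 1.04 CPM in Pcp2-cre mice, and that of 8 neutrophil markers was 1.29 to 3.49 and 1.33 to 4.48 CPM. *Cd3g* and *Ly6g* were at 0 in every mouse. The other markers of these lists were counted in some mice of the study, and none had enough counts to be tested. Of 4 tested markers of border macrophages and 1 of monocytes none passed in edgeR's test or DESeq2, and none at an unadjusted p under 0.05. Of the other cell types, 5 of 7 oligodendrocyte markers were higher, 4 of 8 astrocyte and Bergmann glia markers were higher and 2 lower, 1 of 8 granule cell markers was higher, none of 7 endothelial markers passed (1 at an unadjusted p under 0.05, none in DESeq2), and 6 of 7 tested choroid plexus markers were lower.

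**Figure D3:**
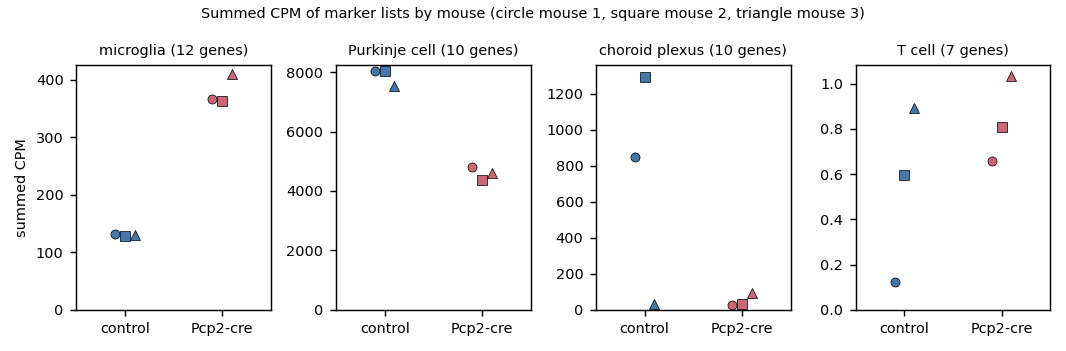
Summed CPM (vertical axes, each from 0) of 4 marker lists in each of 3 control (blue) and 3 Pcp2-cre (red) mice. Microglia sums are 127 to 132 CPM in control and 363 to 411 CPM in Pcp2-cre mice, Purkinje cell sums are lower in Pcp2-cre mice, and control mice 1 and 2 stand apart in the choroid plexus list.

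Inflammatory caspases and gasdermins, which act after the sensors, gave no call in edgeR or DESeq2, and at an unadjusted p under 0.05 *Casp12* and *Gsdmd* would pass. *Casp1*, whose product cuts pro-interleukin 1β and gasdermin D, had 1.25, 1.64 and 2.08 CPM in the control mice and 1.32, 2.77 and 2.07 CPM in the Pcp2-cre mice. The groups overlap, and the log2 fold change was 0.30 (95% interval -0.37 to 0.97, adjusted p = 0.707 in edgeR's test). *Casp12* gave a log2 fold change of 0.46 (95% interval 0.03 to 0.90, adjusted p = 0.233). *Casp4*, which encodes the sensor of bacterial lipopolysaccharide known in mice as caspase 11, was counted 2, 2 and 2 times in control mice, against 3, 2 and 6 times in Pcp2-cre mice and was not tested.

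*Gsdmd*, the pore former of pyroptosis, had 2.12, 1.04 and 2.18 CPM in control mice 1, 2 and 3 and 3.03, 2.42 and 3.40 CPM in Pcp2-cre mice 1, 2 and 3. The groups were apart, but the log2 fold change of 0.66 (95% interval 0.07 to 1.25) came with adjusted p = 0.208 in edgeR's test. The gene overlaps an annotated lncRNA on the other strand by 283 exon bases, and the deposited FPKM of the same mice overlap between the groups. *Gsdme*, another gasdermin, had 23.5 to 30.2 CPM in control and 25.4 to 29.0 CPM in Pcp2-cre mice, groups that overlap. Its log2 fold change was -0.05 (95% interval -0.25 to 0.15). Its exons overlap those of the protein-coding gene *Pals2* on the other strand by 3141 bases, and 23.1% of its stretches of 31 bases also occur in *Pals2*. The *Gsdme* value is therefore uncertain as a value of a single gene.

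Genes of the death receptor route did not pass in edgeR or DESeq2, and at an unadjusted p under 0.05 *Casp8* would pass. *Fas* had 3.37, 3.28 and 2.38 CPM in the control mice and 3.69, 3.23 and 3.40 CPM in the Pcp2-cre mice, groups that overlap, and a log2 fold change of 0.22 (95% interval -0.26 to 0.69). The TRAIL receptor gene *Tnfrsf10b* and the adaptor gene *Fadd* gave 0.36 and -0.27. *Casp8* was counted 21, 17 and 9 times in control mice, against 26, 25 and 23 times in Pcp2-cre mice. This was 2.62, 2.53 and 0.892 CPM against 3.42, 2.89 and 3.40 CPM, so the groups were apart and control mouse 3 was the lowest by far. Its log2 fold change was 0.75 (SE 0.309, adjusted p = 0.183 in edgeR's test).

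The *Casp8* value depended on the control mice. It was 0.32 (adjusted p = 0.638 in edgeR's test) without control mouse 3, 1.83 (adjusted p = 0.00586) with control mouse 3 as the only control, and 1.67 (adjusted p = 0.00733) with the choroid plexus score in the model. Control mice 1 and 2, with the higher *Casp8* counts, are the ones with 849 and 1295 CPM of choroid plexus markers. The part of choroid plexus RNA in these values was not tested.

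Of the necroptosis genes *Ripk1* did not pass, and *Ripk3* and *Mlkl* were too scarce to be tested. *Ripk1*, the kinase that also serves survival signalling, had 8.48, 10.3 and 10.5 CPM in the control mice and 10.4, 10.6 and 11.2 CPM in the Pcp2-cre mice, groups that overlap. Its log2 fold change was 0.14 (95% interval -0.14 to 0.41, adjusted p = 0.678 in edgeR's test). *Ripk3* was counted 4, 1 and 2 times in control mice, against 1, 3 and 7 times in Pcp2-cre mice, and *Mlkl*, the membrane effector, had 6, 3 and 12 and 4, 6 and 3. Both overlap between the groups and were under the filter on low counts.

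Among the BH3-only members, *Bcl2l11* rose. It encodes BIM, which binds all BCL2 survival proteins and is known in neurons for its induction after loss of trophic support. *Bcl2l11* had 10.4, 11.3 and 12.2 CPM in control mice 1, 2 and 3 and 15.8, 16.6 and 20.0 CPM in Pcp2-cre mice 1, 2 and 3, from 76 to 144 counts. Every Pcp2-cre mouse lay above every control mouse, and the log2 fold change was 0.62 (SE 0.119, adjusted p = 0.00147 in edgeR's quasi-likelihood test). It passed with each mouse left out in turn and with the choroid plexus score (0.57, adjusted p = 0.0247), and with control mouse 3 as the only control it was 0.51 (adjusted p = 0.0577). On the scale of log2(FPKM + 1) the difference was 0.47 (adjusted p = 0.0707 in limma). The rise in microglia markers given above accompanies this gene too, and its part was not tested.

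The other BH3-only members did not pass, and *Hrk*, from the list of other apoptosis genes, is given below. *Bbc3* and *Pmaip1*, which encode PUMA and NOXA and are raised by p53, gave log2 fold changes of 0.15 (95% interval -0.13 to 0.42) and 0.25 (95% interval -0.38 to 0.88), and *Bid*, the link from caspase 8 to mitochondria, gave -0.10. Of the stretches of 31 bases in *Bid*, 34.2% also occur in other genes, 28.8% in *Bcl2l13*, whose exons on the other strand overlap those of *Bid* by 3059 bases.

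Among the members, no effector or survival gene of the BCL2 family passed in edgeR or DESeq2, and at an unadjusted p under 0.05 *Mcl1* would pass. Other genes of the family are counted in the list of other apoptosis genes below. *Bax* had 25.8, 26.9 and 26.8 CPM in the control mice and 24.0, 25.7 and 26.8 CPM in the Pcp2-cre mice, with a log2 fold change of -0.06 (95% interval -0.23 to 0.11). *Bak1* gave 0.09. *Bcl2* had 24.5, 21.7 and 23.3 CPM in the control mice and 22.9, 19.4 and 25.3 CPM in the Pcp2-cre mice, with a log2 fold change of -0.05 (95% interval -0.26 to 0.15). Both *Bax* and *Bcl2* overlap between the groups. *Bcl2l1*, which encodes BCL-XL, gave -0.05 (95% interval -0.14 to 0.04). *Mcl1*, a survival gene whose product turns over fast, had 90.3, 96.8 and 93.3 CPM in control mice, against 105, 97.5 and 110 CPM in Pcp2-cre mice. Its groups were apart, and the log2 fold change of 0.15 (95% interval 0.05 to 0.25) came with adjusted p = 0.0700 in edgeR's test and 0.0261 without Pcp2-cre mouse 2, where it was 0.20.

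*Parp1*, which encodes a sensor of DNA strand breaks that caspases cut, was the only one of the 30 genes to fall in edgeR's test. It had 97.8, 96.8 and 102 CPM in control mice 1, 2 and 3 and 87.2, 82.3 and 72.9 CPM in Pcp2-cre mice 1, 2 and 3. The highest Pcp2-cre mouse lay below the lowest control mouse. The log2 fold change was -0.29 (SE 0.0553, adjusted p = 0.00125 in edgeR's quasi-likelihood test), and it passed with each mouse left out, with the choroid plexus score (-0.35) and with control mouse 3 as the only control (-0.33). On log2(FPKM + 1) it was -0.27 (adjusted p = 0.0655 in limma). The summed Purkinje cell markers, 7540 to 8045 CPM in control and 4386 to 4801 CPM in Pcp2-cre mice, were lower in the same mice, and their part was not tested.

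The apoptosome and its caspases did not pass. *Apaf1*, the scaffold that activates caspase 9, had 11.98, 11.0 and 13.6 CPM in the control mice and 8.56, 13.7 and 10.7 CPM in the Pcp2-cre mice, groups that overlap, and a log2 fold change of -0.15 (95% interval -0.47 to 0.16). *Casp9*, *Casp6* and the caspase inhibitor gene *Xiap* gave -0.06, -0.12 and -0.05.

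None of the 3 p53 genes passed in edgeR's test, none in DESeq2 and none at an unadjusted p under 0.05. *Trp53* had 20.8, 16.1 and 18.1 CPM in the control mice and 20.4, 18.8 and 21.0 CPM in the Pcp2-cre mice, with a log2 fold change of 0.12 (95% interval -0.10 to 0.34). *Cdkn1a*, the target that encodes p21, had 50.9, 58.7 and 50.5 CPM in control mice, against 56.0, 54.0 and 55.5 CPM in Pcp2-cre mice, with a log2 fold change of 0.05 (95% interval -0.08 to 0.19, adjusted p = 0.748 in edgeR's test). *Mdm2*, which marks p53 for breakdown and is itself a target, gave -0.04 (95% interval -0.17 to 0.09). All 3 overlap between the groups in CPM, and their intervals lie within 0.5 of 0. In the deposited FPKM *Trp53* was apart, with 6.93 to 7.37 FPKM in control mice, against 8.02 to 8.26 FPKM in Pcp2-cre mice.

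Of the 25 tested genes that did not pass, 15 had a 95% interval of the log2 fold change within 0.5 of 0 in either direction, which is 1.41-fold, and 22 had it within 1, which is 2-fold. At an unadjusted p under 0.05 in edgeR's test 8 of the 30 tested genes were higher and 1 lower, against 8.36% and 9.67% of all tested genes. The 4 of them that had not passed were *Casp8*, *Casp12*, *Gsdmd* and *Mcl1*, all with Pcp2-cre mice higher.

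Other genes of these pathways were taken from a list of 100 symbols, also chosen with earlier results of these data known. The count table held 99 of them and 74 were tested, 4 were higher and 3 lower, with a median log2 fold change of 0.03, against 2.99% and 4.75% of all tested genes. In the list of other apoptosis genes 2 of 31 tested rose and none fell, and DESeq2 called 1 higher and none lower. At an unadjusted p under 0.05 in edgeR's test 6 were higher and 3 lower, against 8.36% and 9.67% of all tested genes. *Hrk*, a BH3-only gene of neurons, had 12.2, 11.0 and 11.1 CPM in control mice, against 14.0, 17.4 and 14.8 CPM in Pcp2-cre mice, a log2 fold change of 0.43 (adjusted p = 0.0258 in edgeR's test). The *Hrk* call was lost without control mouse 2, control mouse 3, Pcp2-cre mouse 2 or Pcp2-cre mouse 3, with adjusted p up to 0.221.

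In the list of other necroptosis and pyroptosis genes 2 of 12 tested rose and 1 fell in edgeR's test, while DESeq2 called 1 higher and none lower. *P2rx7*, an ATP-gated channel upstream of NLRP3, had 11.0, 11.6 and 10.8 CPM in control mice, against 16.6, 15.4 and 14.4 CPM in Pcp2-cre mice, groups that do not overlap. Its log2 fold change was 0.48 (adjusted p = 0.00886 in edgeR's test), and 0.42 (adjusted p = 0.0618) without Pcp2-cre mouse 1. *Ctsb*, a lysosomal protease, rose by 0.21 on the log2 scale (adjusted p = 4.68e-04) and passed in all 16 alternatives. *Nlrp10*, an NLR protein without leucine-rich repeats, fell by 1.03 on the log2 scale (adjusted p = 0.00962), from 4.03 ± 0.658 CPM (SD, n = 3) to 2.00 ± 0.433 CPM (SD, n = 3), and the adjusted p lay between 0.0541 and 0.0803 without control mouse 1, Pcp2-cre mouse 2 or Pcp2-cre mouse 3.

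In the list of other p53 targets and regulators none of 31 tested genes rose and 2 fell in edgeR's test, while DESeq2 called none higher and 1 lower. At an unadjusted p under 0.05 in edgeR's test 1 was higher and 3 lower, against the same shares of all genes. *Zmat3*, which encodes an RNA-binding protein, fell by 0.23 (adjusted p = 0.00114 in edgeR's test), and *Xpc*, a DNA damage sensor of excision repair, fell by 0.30 (adjusted p = 0.0442). The *Xpc* call was lost when any mouse but control mouse 3 was left out, with adjusted p between 0.0596 and 0.152 in the others, and it was also lost with the replicate number as a block (adjusted p = 0.0646). With the choroid plexus score 2 related genes were higher and 1 lower, and the calls of *Hrk*, *P2rx7*, *Zmat3* and *Xpc* were among those lost.

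The members differed widely in level. Levels were compared between genes by FPKM in control mice, where *Bcl2l1* was the highest at 45.3 ± 3.43 FPKM (SD, n = 3) and *Bax* followed at 27.5 ± 0.511 FPKM. *Xiap*, *Cdkn1a*, *Mcl1* and *Parp1* came next, between 24.0 and 23.3 FPKM, with neighbours that overlap, and *Mdm2* stood below them at 19.2 ± 0.773 FPKM. A gap then separated *Trp53*, at 7.16 ± 0.223 FPKM. Of the 34 neighbouring pairs in this order 26 overlapped between mice and 8 did not. In control mice 7 of the 35 genes had a mean over 10 FPKM and 15 had a mean under 1 FPKM.

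The members at the low end were sensors, necroptosis genes and *Casp4*. *Naip5* was at 0.131 ± 0.0266 FPKM (SD, n = 3) in control mice, *Naip2* at 0.0734 ± 0.0289 FPKM and *Nlrp3*, the lowest, at 0.0482 ± 0.00782 FPKM. In Pcp2-cre mice *Nlrp3* was at 0.123, 0.196 and 0.200 FPKM, above all control mice. No member was listed at 0 FPKM in a mouse, although *Naip2* had no count in control mouse 2. FPKM were estimated apart from the counts.

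**Figure D4:**
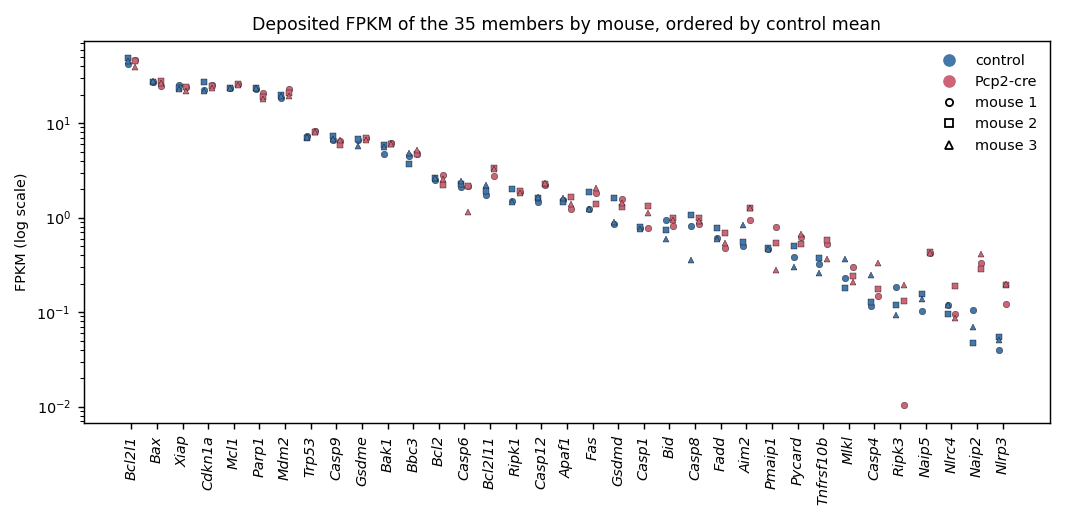
FPKM (vertical axis, log scale) of all 35 genes, ordered by their mean in control mice, with 1 point per mouse for 3 control (blue) and 3 Pcp2-cre (red) mice. Levels run from 45.3 FPKM for *Bcl2l1* to 0.0482 FPKM for *Nlrp3* in control mice, and *Naip5*, *Naip2* and *Nlrp3* show the groups apart at the low end.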

How the data were processed

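The authors made poly A-selected libraries, aligned paired reads to GRCm39 with STAR and quantified Gencode genes with featureCounts and StringTie; they deposited raw counts per gene for each mouse and, separately, FPKM. Tool versions, strand use and the Gencode release are not given in the sources used here, so overlapping genes on opposite strands cannot be told apart. The deposited counts of all 6 mice were fitted with edgeR 4.0.16 under R 4.3.3, after filterByExpr and TMM normalization, by quasi-likelihood, with Benjamini-Hochberg adjustment over 16961 genes. CPM use TMM-scaled libraries. Limma 3.58.1 on log2(FPKM + 1) or log2(FPKM + 0.1) and DESeq2 1.42.0 were alternatives. Sequence overlap used Gencode M39. The members and gene lists were chosen with earlier results of these data known. Values per mouse were given for members that passed, define their role or were under the filter; *Casp8*, *Gsdmd*, *Gsdme* and *Mcl1* were added after their values were seen. Related genes were named where they passed, except for 1 that is not reported here. Scripts were tested on simulated counts. 1 related symbol, *Irgb10*, was not matched.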

Additional observations from a re-analysis of the deposited data

How the results depend on the processing

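No call reversed. Over 16 alternatives, *Naip5* passed in all 15 that tested it (adjusted p from 4.74e-06 to 0.0133), *Parp1* was lost in 2 (both on FPKM), *Bcl2l11* in 3, *Naip2* in 6 of 15 and *Aim2* in 9. Of the 25 members that did not pass, *Casp8* passed in 2 alternatives, *Mcl1* in 1 and *Casp12* in 1, on log2(FPKM + 1) (0.34, adjusted p = 0.0336), which left 392 of 396 values on the same side. Members that rose numbered 4 in the edgeR fit. They numbered 2 in DESeq2, when 10 counts were required in every mouse (where *Naip5* and *Naip2* are not tested), on log2(FPKM + 0.1), and with control mouse 3 as the only control, an alternative chosen after seeing the data. These settings also gave 2 past the fold threshold, where log2(FPKM + 1) gave 0, since the pseudocount shrinks low genes. Members that fell numbered 1, and 0 on either FPKM scale. Related genes that rose numbered 4, and 2 in DESeq2, with the choroid plexus score, on log2(FPKM + 1) and with the single control, 1 on log2(FPKM + 0.1) and 6 with no filter. Related genes that fell numbered 3, and 1 in DESeq2, with the choroid plexus score and on log2(FPKM + 0.1), and 2 when 10 counts were required in every mouse, with the replicate block, on log2(FPKM + 1) and with the single control. With each mouse left out, members that rose ranged from 2 to 4, those that fell stayed at 1, those past the fold threshold ranged from 2 to 4, and related genes ranged from 2 to 5 higher and 1 to 3 lower. Over all genes DESeq2 called 260 higher and 521 lower against 507 and 805. Same-numbered mice share a number and a sex (mice 1 and 2 male, mouse 3 female), and the labels name no other link. Their deviations correlated with r = 0.03, 0.04 and 0.13, and with the replicate block 4 members rose, 1 fell and 4 passed the fold threshold, against 4, 1 and 4 without it. With sex as a covariate these counts were 4, 1 and 4, and 5 related genes rose and 3 fell. Depth limits the 5 untested members and the sensors, whose counts are few.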

Other observations

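Of the cytokine genes *Il1a*, *Il1b* and *Il18*, only *Il18* had enough counts to be tested, and it did not pass. These genes were chosen after their values were seen. *Il1b* was counted 0, 1 and 0 times in the control mice, against 0, 3 and 1 times in the Pcp2-cre mice, at or under the floor of 3 counts in every mouse. *Il1a* was counted 5, 1 and 8 times in the control mice, against 3, 3 and 2 times in the Pcp2-cre mice. *Il18* had 7.86, 5.81 and 7.33 CPM in control and 6.59, 6.93 and 5.92 CPM in Pcp2-cre mice, groups that overlap, with a log2 fold change of -0.12 (95% interval -0.47 to 0.23, adjusted p = 0.794 in edgeR's quasi-likelihood test). *Tnfsf10*, which encodes the death ligand TRAIL, had 1.75, 1.19 and 1.59 CPM in control and 2.24, 2.89 and 2.96 CPM in Pcp2-cre mice. Its groups were apart, and the log2 fold change was 0.81 (SE 0.276, adjusted p = 0.0857 in edgeR's test). The survival genes *Bcl2a1b* and *Bcl2a1d*, near-identical copies whose reads are hard to assign, had 0 to 3 counts in control and 3 to 7 in Pcp2-cre mice. *Bcl2a1a*, another gene of this group, was counted 2, 1 and 1 times in control mice, against 5, 2 and 2 times in Pcp2-cre mice. Its CPM overlap between the groups, and none of these genes was tested.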
